A study of Mus musculus with 30 samples.

Results

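Macrophages were picked out of 2 single-cell libraries of cells taken from mouse hearts. A barcode was kept when it had 500 or more genes and under 20% of its counts in mitochondrial genes, which left 9601 of 11612 barcodes. It entered the macrophage class when at least 3 of 7 markers (Csf1r, Adgre1, C1qa, C1qb, Cd68, Fcer1g and Tyrobp) had a count and when Col1a1, Col1a2 and Col3a1 together held under 0.5% of its counts. The class held 1164 cells, and the other 8437 kept cells were set beside it. It had 895 cells in the 24-month library, which were 15.5% of the kept cells (exact 95% interval 14.6 to 16.5%). In the neonatal library it had 269 cells, or 7.03% (6.24 to 7.88%). These intervals cover counting error only, since each age is 1 library and no test between the ages is possible in the single cells.

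The first library came from wild-type hearts aged 24 months and the second from wild-type hearts at postnatal day 1 to 3. Both are labelled as primary cardiac fibroblasts treated with MGT, the transcription factors Mef2c, Gata4 and Tbx5, which convert fibroblasts toward a cardiomyocyte-like state. The labels do not give the day after transduction, and both ages carry the treatment, so there are no untreated single cells. Bulk libraries, 2 per group, were used as an independent measurement. They were MGT cells from 18-month and from neonatal hearts 3 days after transduction, and cardiac fibroblasts (CFs) from 24-month and from neonatal hearts cultured for 3 days, all labelled wild type. The deposited columns of the 18-month cells are named 15 months, and the label was followed. The fits also took in the other groups of the 2 bulk tables, which share the estimate of the spread. These were LacZ control cells (neonatal, 3 and 18 months), 3-month MGT cells, and CFs of 3 and 12 months. Nothing in the labels says that the 2 libraries of a group came from separate animals. The p-values therefore measure a spread between libraries of the same group, which may be technical.

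Macrophages are phagocytes of myeloid origin that live in most tissues. The heart is seeded before birth by yolk sac and fetal progenitors and later receives cells from blood monocytes. They depend on signals through the receptor Csf1r, clear dead cells and debris, bind antibody-coated particles through Fc receptors, make complement component C1q and secrete chemokines that draw in other leukocytes. Cultured CF preparations are known to carry some of them along.

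The label of the class was checked against the data first. The 7 markers held a median of 1.14% of the counts of a class cell at 24 months and 1.17% in the neonatal library, but the cells formed a main and a minor group. In 742 class cells at 24 months and 211 in the neonatal library the markers held 0.1% or more of the counts, and these are called marker-rich cells below. That limit was set after the distribution had been seen. The other 153 and 58 class cells, called marker-poor, met the rule with a far smaller share. Their median marker share was 0.00944% at 24 months and 0.00586% in the neonatal library. Marker-poor cells had a median of 53782 UMIs at 24 months and 90632 in the neonatal library, against 22079.5 and 28689 in marker-rich cells. Mitochondrial genes held a median of 0.128% and 0.151% of their counts, against 2.13% and 2.45% in marker-rich cells. They supplied 35.0% of all class counts at 24 months and 45% in the neonatal library.

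**Figure D1:**
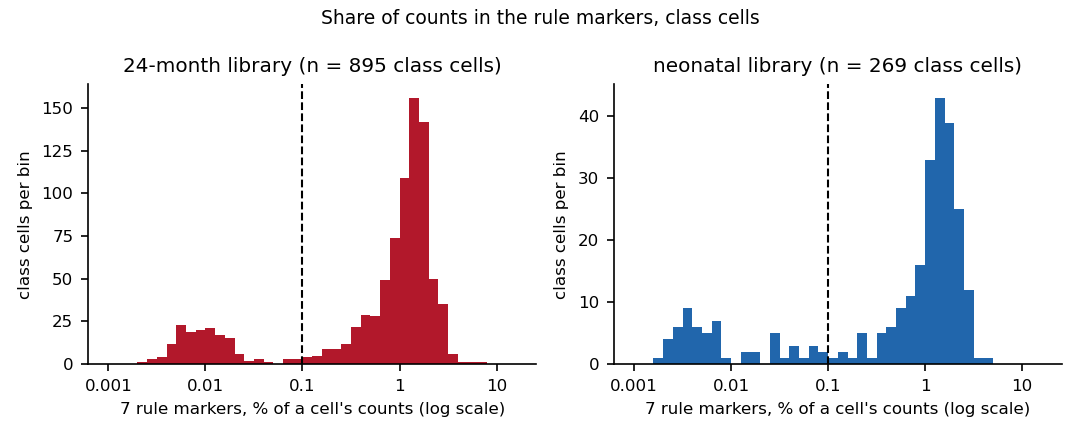
Number of class cells (vertical axis) by the share of a cell's counts held by the 7 markers of the rule (horizontal axis, log scale), in the 24-month library (left, 895 cells) and the neonatal library (right, 269 cells). The dashed line is the 0.1% limit of marker-rich cells: 742 and 211 cells lie at or above it, 153 and 58 below it.

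Marker-poor cells did not carry a macrophage profile. Ptprc, the pan-leukocyte antigen CD45, was at 1.45 CPM (the gene's counts scaled to a common total of summed counts) in marker-poor cells at 24 months and at 0.363 CPM in neonatal ones, against 230 and 165 CPM in marker-rich cells. Spi1, which encodes the myeloid factor PU.1, was at 1.23 and 1.09 CPM, against 298 and 308 CPM. Sparc, a matrix glycoprotein of fibroblasts, stood at 5084.5 and 5253 CPM in marker-poor cells and at 563 and 825 CPM in marker-rich cells. The data therefore go against the label for these cells, and values for marker-rich cells are given first below, with whole-class values where they change the picture. Near the limits of the rule, 156 class cells at 24 months and 47 in the neonatal library had exactly 3 markers, and 29.5% and 14.9% of them were marker-rich. Just outside it, 291 and 148 kept cells had 2 markers, of which 21.6% and 0.676% would have been marker-rich. Collagen shares of 0.4 to 0.5% were seen in 63 and 13 class cells, and shares of 0.5 to 0.6% in 44 and 14 cells that the rule left out. Only 11 barcodes occurred in both libraries, and 1 of them was in the class.

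Promoters of 4 genes that carry the patterns described below are shown, from 250 bases before to 50 bases after the transcription start in RefSeq on GRCm38.p6. C1qb is a marker of the rule at chr4:136886151-136886450 (minus strand), and Clec4e, a gene higher at 24 months, is at chr6:123289822-123290121 (minus strand). Oas3 and Isg15, both lower at 24 months, are at chr5:120777610-120777909 and chr4:156200769-156201068 (both minus strand). Capitals mark matches to GAGGAA, a core bound by PU.1 and related ETS factors, or to 2 copies of GAAA with any 2 bases between them, the core of the interferon-stimulated response element, searched on both strands. The second motif is called the GAAA pair, and its 3 matches in Isg15 overlap. Clec4e holds a match on each strand, the first written as TTCCTC.
C1qb: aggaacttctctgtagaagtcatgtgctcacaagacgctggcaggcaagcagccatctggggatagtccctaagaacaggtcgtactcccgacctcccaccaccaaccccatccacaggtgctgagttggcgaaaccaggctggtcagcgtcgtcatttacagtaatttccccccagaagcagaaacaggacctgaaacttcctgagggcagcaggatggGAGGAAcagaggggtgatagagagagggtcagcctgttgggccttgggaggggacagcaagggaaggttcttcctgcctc
Clec4e: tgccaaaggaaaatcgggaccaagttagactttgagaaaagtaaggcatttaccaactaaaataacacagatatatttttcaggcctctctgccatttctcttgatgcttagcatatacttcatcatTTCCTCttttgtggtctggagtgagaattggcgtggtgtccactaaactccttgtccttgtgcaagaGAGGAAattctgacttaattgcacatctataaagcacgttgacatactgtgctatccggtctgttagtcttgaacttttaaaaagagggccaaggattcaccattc
Oas3: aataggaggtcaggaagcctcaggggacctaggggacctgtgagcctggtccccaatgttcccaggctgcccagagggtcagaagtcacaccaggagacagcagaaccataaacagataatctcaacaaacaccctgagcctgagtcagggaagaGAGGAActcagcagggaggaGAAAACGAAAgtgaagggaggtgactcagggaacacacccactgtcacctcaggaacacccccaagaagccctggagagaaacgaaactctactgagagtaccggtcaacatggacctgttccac
Isg15: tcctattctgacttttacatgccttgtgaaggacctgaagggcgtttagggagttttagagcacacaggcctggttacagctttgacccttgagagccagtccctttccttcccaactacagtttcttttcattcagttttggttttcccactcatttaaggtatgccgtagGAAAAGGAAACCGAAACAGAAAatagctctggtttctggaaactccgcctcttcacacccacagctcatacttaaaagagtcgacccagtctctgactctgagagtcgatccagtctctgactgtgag
Of 32851 promoters of this length, 9289 (28.3%) hold GAGGAA and 1131 (3.44%) hold the GAAA pair. The table held 16 of the 25 interferon-stimulated genes described below, and the GAAA pair was in 10 of them and GAGGAA in 5. It held 11 of 14 macrophage-enriched genes higher at 24 months, with GAGGAA in 6 and the GAAA pair in 3, and 5 of 7 lower ones, with 3 and 2. These are letter matches in a short window and say nothing of binding.

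Genes that follow from the choice of cells were high in the class in both libraries. This is a description, because the rule and the levels use the same cells. Lyz2, lysozyme of myeloid cells, was at 11867 CPM in class cells and 211 CPM in other kept cells at 24 months, and at 5571 and 42.9 CPM in the neonatal library. Ctss, the antigen-processing protease cathepsin S, was 95.3 times higher in the class than in other kept cells at 24 months and 210 times higher in the neonatal library. Mmp12, macrophage elastase, was 108 and 297 times higher. Among genes with 300 CPM or more in the class in both libraries, the 20 with the largest ratios outside the rule also held the third C1q chain C1qc, the lipid receptor Trem2, the membrane protein Ms4a7, the lysosomal membrane protein Laptm5, the survival gene Bcl2a1b and Cd52. Lower down came genes that other cells of these hearts also expressed. Spp1 (osteopontin) was 25.4 and 78 times higher, the galectin Lgals3 24.2 and 27.7 times, and the ferritin heavy chain Fth1 3.94 and 6.71 times.

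All 25 myeloid markers outside the rule were detected in marker-rich cells of both ages. Their summed level was 30453 CPM at 24 months and 23646 CPM in the neonatal library, against 435 and 173 CPM in other kept cells. Each cell was also thinned to 1000 UMIs so that shares of cells could be set side by side. C1qb then had a count in 85.0% of 24-month and 82.4% of neonatal marker-rich cells, against 0.898% and 0% of collagen-rich cells with under 3 markers. Collagen-rich cells, whose median depths were 38072 and 53769.5 UMIs, served as background. For a rule marker such as C1qb the choice of cells limits their share and raises that of marker-rich cells, so this contrast is a description. Before thinning the C1qb shares were 97.2% and 98.1% in marker-rich and 17.2% and 6.88% in collagen-rich cells. Thinning left out 13 of the 24-month and 1 of the neonatal marker-rich cells because they were too shallow.

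**Figure D2:**
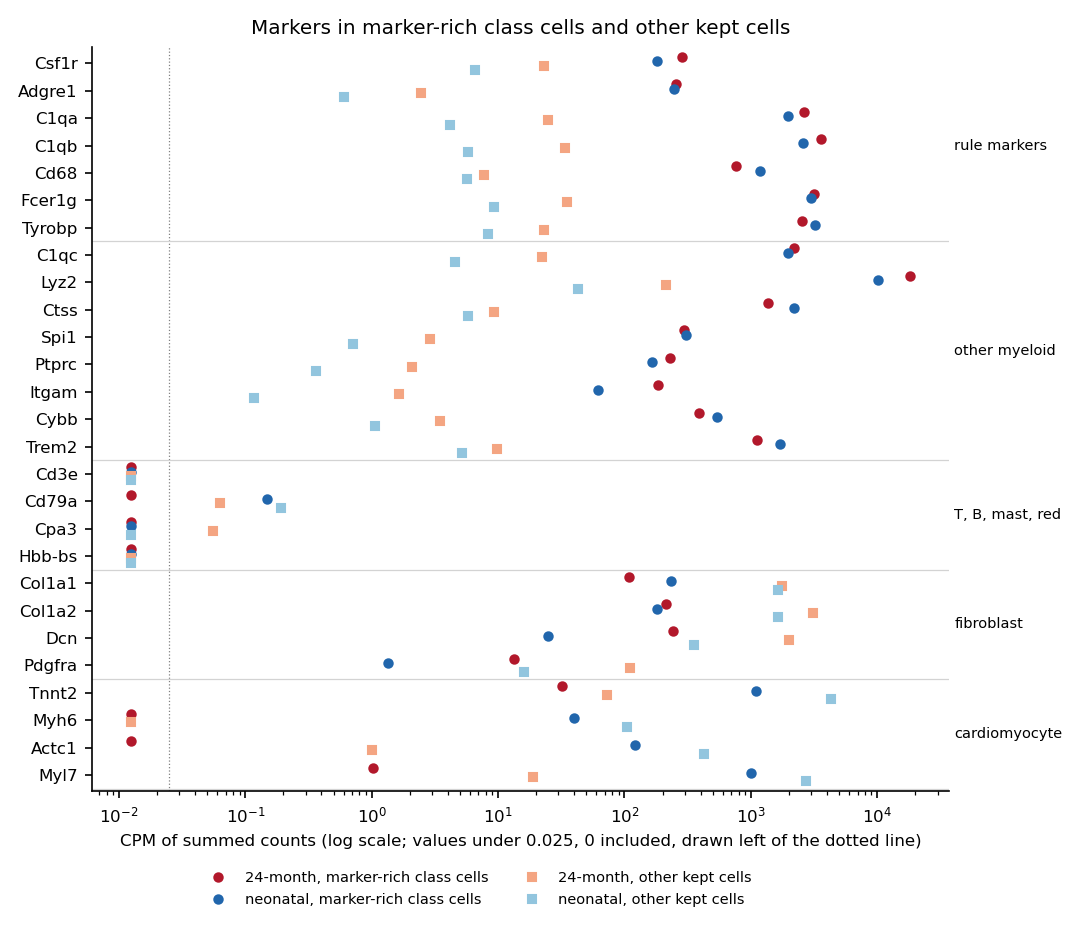
Level of marker genes in CPM of summed counts (horizontal axis, log scale) in marker-rich class cells (circles) and other kept cells (squares) of the 24-month (red) and neonatal (blue) libraries, 1 library per age. Myeloid genes such as Lyz2 (18207 and 10078 CPM in marker-rich cells) lie far right of the other kept cells (211 and 42.9 CPM), T, B, mast and red cell genes lie near 0, and fibroblast genes are lower in marker-rich cells.

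Markers of other leukocytes were at or near 0 in marker-rich cells. The 11 T and NK cell markers summed to 0.301 CPM at 24 months and 2.82 CPM in the neonatal library, with 8 and 6 of them at 0 counts. The 7 B cell markers summed to 5.35 and 4.16 CPM. The 5 red cell genes had no count in any class cell. As a limit, 3 counts correspond to 0.180 CPM in 24-month and 0.446 CPM in neonatal marker-rich cells. Of the mast cell genes, the protease Mcpt4 had 0 CPM at 24 months and 13.8 CPM in the neonatal library, where other kept cells held 20.8 CPM, while Cpa3 was at 0 in both. Dendritic cell genes Flt3, Cd209a, Xcr1, Ccr7 and Siglech were at 0 at both ages. Itgax, the integrin CD11c that some macrophages also carry, was at 68.4 CPM at 24 months and 17.5 CPM in neonatal cells. The 9 neutrophil genes summed to 15.4 and 15.8 CPM, with S100a9, Retnlg, Ly6g and Ngp at 0.

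Transcripts of fibroblasts and heart muscle were present in marker-rich cells, at lower levels than in other kept cells. Col1a1, the main fibrillar collagen chain, was at 108 CPM at 24 months and 234 CPM in neonatal marker-rich cells, against 1774 and 1632 CPM in other kept cells, and the rule itself limits it. Its order between the ages differed between these populations. Tnnt2, cardiac troponin T, was at 32.2 and 1092 CPM, against 72.4 and 4333 CPM in other kept cells. Myl7, the atrial myosin light chain, was at 1.02 and 997 CPM, against 19.1 and 2720.2 CPM. The 12 cardiomyocyte markers summed to 36.1 CPM at 24 months and 2369 CPM in the neonatal marker-rich cells, with 6 and 1 of them at 0 counts. The 13 fibroblast markers summed to 1822 and 1649 CPM, against 20799 and 13640.5 CPM in other kept cells. The 10 endothelial markers summed to 410 and 1001 CPM, of which Fabp4 gave 367 and 914 CPM. In other kept cells the endothelial markers summed to less, at 307 and 297 CPM. The 10 smooth muscle and pericyte markers summed to 477 and 1084 CPM, against 3874 and 5869 CPM in other kept cells. Whether these transcripts came from other cells was not tested. Of the delivered factors, Gata4 was at 5.41 CPM at 24 months and 10.7 CPM in neonatal marker-rich cells, against 46.6 and 72.2 CPM in other kept cells. Tbx5 was at 0.601 and 1.78 CPM, against 3.55 and 5.78 CPM. Mef2c, which macrophages can express themselves, was at 71.9 and 106 CPM, against 87.0 and 221 CPM. Nr4a3, the nuclear receptor the series is about, was at 1.02 and 0.297 CPM, against 8.20 and 2.21 CPM.

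Between the ages, most gene levels in marker-rich cells were close. The median log2 ratio (24-month over neonatal CPM) over 13127 genes with 10 or more counts was 0.01. Of 2859 genes with 50 CPM or more in the higher age, 29 (1.01%) were 4-fold or more higher at 24 months and 49 (1.71%) 4-fold or more lower. At 2-fold these were 119 (4.16%) and 137 (4.79%). At 4-fold in the whole class, 45 (1.46%) of 3081 genes were higher and 58 (1.88%) lower. In other kept cells, also at 4-fold, these were 89 (2.67%) and 80 (2.4%) of 3332. Many of the largest differences in the whole class, though not those of Ccl6 and Clec4n, belonged to genes that other kept cells expressed as strongly. Mmp3, a stromal matrix protease, was at 761 and 12.7 CPM in 24-month and neonatal class cells but at 2776 and 37.2 CPM in other kept cells. For this reason the groups below are described in marker-rich cells with other kept cells beside them. All intervals on ratios are exact 95% intervals of the counts and do not cover the spread between animals.

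The markers of the rule moved little and in both directions. Csf1r, the receptor for the macrophage growth factors Csf1 and Il34, was at 288 CPM at 24 months and 180 CPM in neonatal marker-rich cells (log2 ratio 0.68, interval 0.59 to 0.77). Adgre1, the F4/80 antigen, was at 254 and 245 CPM, and its interval of -0.03 to 0.14 includes 0. The C1q chains C1qa and C1qb were higher at 24 months, at 2616 and 1950.4 CPM and at 3599 and 2591 CPM. Cd68, a lysosomal glycoprotein, was lower, at 761 and 1184 CPM (-0.64). The signalling adaptor Fcer1g was at 3149 and 2970.3 CPM and its partner Tyrobp at 2562 and 3203.5 CPM. None of the 7 differed by 2-fold. Counts of these same markers chose the cells at both ages, so their closeness is in part set by that choice.

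Macrophage transcription factors with 50 CPM or more were close in both libraries, while several surface receptors were not. Spi1 was at 298 CPM at 24 months and 308 CPM in the neonatal library, and Irf8, a factor of the monocyte lineage, at 168 and 173 CPM. The intervals of both log2 ratios include 0. None of the 8 listed factors with 50 CPM or more differed by 2-fold. Over all 15 listed, the log2 ratios ran from -1.76 to 1.61, with a median of 0.20. Itgam, the integrin CD11b, was at 184 and 62.3 CPM (log2 1.56). Cd14, the coreceptor for bacterial lipopolysaccharide, was at 290 and 88.0 CPM (1.72), and the mannose receptor Mrc1 at 157 and 57.9 CPM (1.44). Ms4a7 was lower at 24 months, at 867 and 1917 CPM (-1.15). The lysozyme gene Lyz2 was at 18207 and 10078 CPM (0.85). Of the 25 myeloid markers outside the rule, 13 were higher and 12 lower at 24 months, with a median log2 ratio of 0.14. Among the 23 with 50 CPM or more, 3 were at least 2-fold higher and 2 at least 2-fold lower, against 4.16% and 4.79% of all genes.

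Of 6 Fc receptor genes, 4 were higher and 2 lower at 24 months, with a median log2 ratio of 0.11. Fcgr2b, the inhibitory receptor for immunoglobulin G, was at 162 CPM at 24 months and 43.1 CPM in neonatal marker-rich cells (log2 1.91, 1.74 to 2.09). The activating receptors Fcgr1 and Fcgr4 were lower, at 80.0 and 214 CPM (-1.42) and at 52.3 and 126 CPM (-1.27). Fcgr3, a further activating receptor, was at 435 and 396 CPM (0.14). In other kept cells the 4 genes were between 0.0452 and 3.78 CPM.

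Complement genes were mostly higher at 24 months, 12 of 16 with a median log2 ratio of 0.70, and in other kept cells all 16 were higher with a median of 2.49. Cfp, which encodes properdin, the stabiliser of the alternative pathway convertase, was at 225 CPM at 24 months and 48.7 CPM in neonatal marker-rich cells (2.21). The anaphylatoxin receptor C5ar1 was at 346 and 183 CPM, whereas C3ar1 was at 347 and 636 CPM. C2, a component of the classical pathway, was lower at 24 months, at 2.52 and 27.2 CPM (-3.43, -3.95 to -2.94). In the whole class it was at 4.997 and 17.0 CPM (-1.77). C3 itself was at 59.6 and 5.35 CPM in marker-rich cells, and at 373 and 9.42 CPM in other kept cells.

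Genes of lipid-laden macrophages were mainly lower at 24 months. Of 15 listed, 12 were lower and 3 higher, with a median of -0.42, while in other kept cells 12 of 15 were higher. Gpnmb, a glycoprotein of lysosome-rich macrophages, was at 1282 CPM at 24 months and 4428 CPM in neonatal cells (-1.79). Apoe, the lipid carrier, was at 3039 and 8254 CPM (-1.44). The fatty acid binding proteins Fabp5 and Fabp4 were at 2705 and 6614 CPM (-1.29) and at 367 and 914 CPM (-1.31). Trem2, the receptor that senses lipids, was at 1117 and 1711 CPM (-0.61). Spp1 ran the other way, at 15938 CPM at 24 months and 6393 CPM in neonatal cells (1.32). Apoe and Spp1 were both higher at 24 months in other kept cells, by 2.69 and 3.18 on the log2 scale. Lysosomal genes differed less: of 20, 17 were lower with a median of -0.20, and the only one to differ by 2-fold among the 19 with 50 CPM or more was Ctsc, which activates granule proteases, at 401 and 179 CPM (1.17). In the whole class 11 of the 20 were higher, with a median of 0.04.

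**Figure D3:**
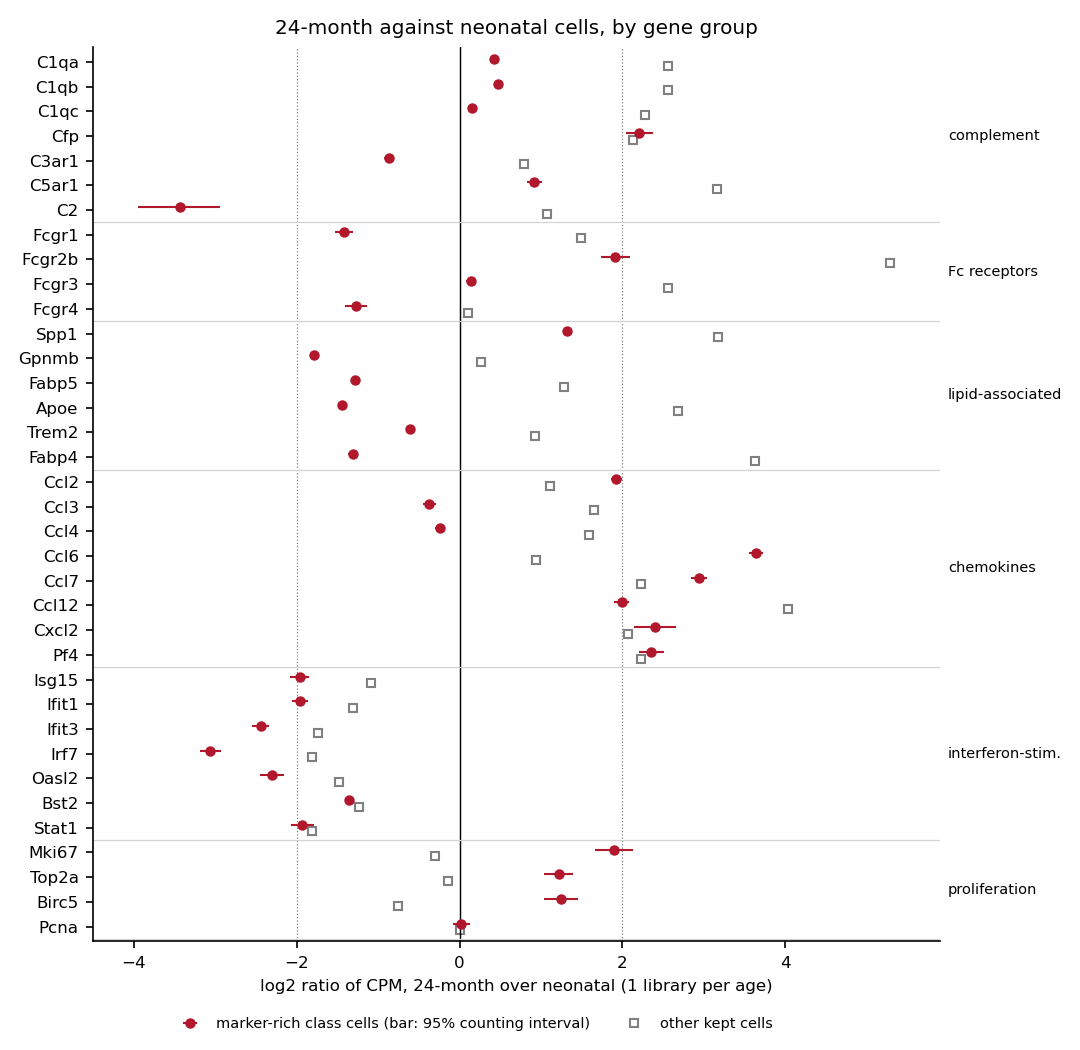
Log2 ratio of CPM, 24-month over neonatal (horizontal axis), for genes of 6 groups in marker-rich class cells (red circles, bars are 95% counting intervals) and in other kept cells (grey squares), 1 library per age. Dotted lines mark 4-fold. Chemokines such as Ccl6 (3.64) lie to the right and interferon-stimulated genes such as Irf7 (-3.07) to the left in marker-rich cells.

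Several chemokine genes were far higher at 24 months. Ccl6 was at 1981 CPM at 24 months and 159 CPM in neonatal marker-rich cells, a 12.5-fold difference (interval 11.7 to 13.3). It was at 17.2 and 8.94 CPM in other kept cells. Ccl7, a monocyte attractant, was at 946 and 123 CPM (2.94), and the related Ccl2 at 1257 and 331 CPM (1.93). Other kept cells made both, with Ccl7 at 469 and 100 CPM and Ccl2 at 558 and 257 CPM. Ccl12, the mouse chemokine closest to Ccl2, was at 667 and 168 CPM (1.99), against 7.83 and 0.479 CPM in other kept cells. Cxcl2, which draws neutrophils, was at 103 and 19.6 CPM (2.40), and the platelet factor Pf4 at 300 and 58.7 CPM (2.35). Ccl3 and Ccl4, which attract monocytes and lymphocytes, were lower, at 217 and 280 CPM (-0.37) and at 406 and 479 CPM (-0.24). Ccl8 was at 156 and 14.3 CPM, but at 491 and 3.55 CPM in other kept cells. Of the 19 chemokines with 10 or more counts in marker-rich cells, 16 were higher at 24 months, with a median of 1.99, and in other kept cells 19 of 22 were higher, with a median of 1.88. Among the 13 with 50 CPM or more in marker-rich cells, 9 were at least 2-fold higher (4.16% of all genes were) and 5 at least 4-fold higher (1.01% of all genes), and none was 2-fold lower. Ccl5 and Cxcl10 changed sides with the marker-poor cells. Ccl5, a T cell attractant, had a log2 ratio of 1.60 in marker-rich cells and -1.12 in the whole class, and the interferon-induced Cxcl10 had 0.77 and -1.56. The 16 listed inflammatory cytokine genes summed to 408 CPM at 24 months and 370 CPM in neonatal marker-rich cells, and 3 of them reached 50 CPM. Tnf was at 12.8 and 11.3 CPM and Il1b at 0.421 and 1.19 CPM. Nlrp3, the inflammasome sensor, was at 41.9 and 7.58 CPM (2.47).

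Interferon-stimulated genes were lower at 24 months throughout the list. All 23 genes with a row, of 25 listed, were lower in marker-rich cells, with a median log2 ratio of -1.97. Of the 20 with 50 CPM or more, 18 were at least 2-fold lower, as were 4.79% of all genes, and 10 at least 4-fold lower, as were 1.71% of all genes. Irf7, the factor that amplifies interferon production, was at 38.4 CPM at 24 months and 321 CPM in neonatal cells, which is 8.37-fold lower. Isg15, a ubiquitin-like modifier, was at 62.9 and 246 CPM (-1.97). The RNA-binding antiviral genes Ifit1 and Ifit3 were at 84.3 and 327 CPM (-1.96) and at 71.5 and 389 CPM (-2.45). Bst2, which tethers virus particles, was at 595 and 1526 CPM (-1.36). Other kept cells of these libraries showed the same direction for 20 of the 23 genes, with a median of -1.24, and their levels were often higher. Irf7 was at 126 and 445 CPM there and Isg15 at 273 and 583 CPM. In 21 of 23 genes the log2 ratio was lower in marker-rich than in other kept cells, a difference that was not tested. Marker-rich cells stood below collagen-rich cells for 21 of 23 genes at 24 months and for 16 of 23 in the neonatal library. The part that RNA from other cells has in these levels was not tested.

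Antigen presentation differed less. All 12 genes of the class I pathway were lower at 24 months, with a median of -0.62. In other kept cells 11 of the 12 were lower as well, with a median of -0.39. B2m, the light chain of class I molecules, was at 1640.0 CPM at 24 months and 2379.9 CPM in neonatal marker-rich cells (-0.54), and H2-T23 at 72.8 and 188 CPM (-1.37). Class II genes were scarce at both ages. The 7 listed summed to 94.3 CPM at 24 months and 38.0 CPM in neonatal cells, with H2-Ab1 at 9.97 and 1.93 CPM and the invariant chain Cd74 at 8.41 and 3.57 CPM. Their sum was also higher at 24 months in other kept cells, at 15.7 and 5.41 CPM.

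Genes often used to tell resident from monocyte-derived heart macrophages were in part near the floor. Of 14 resident-type genes with 10 or more counts, 12 were higher at 24 months, with a median of 0.75. Lyve1 had 7 counts at 24 months and 4 in neonatal marker-rich cells, Timd4 had 1 and 6, and the scavenger receptor Cd163 had 12 and 0. The monocyte receptor Ccr2 had 2 and 3 counts and Ly6c2 had 0 in both. Folr2, a folate receptor of resident-type cells, was clearly present, at 195 and 172 CPM (0.18, 0.08 to 0.28). F13a1, the coagulation factor subunit of some tissue macrophages, had 203 counts (12.2 CPM) at 24 months and 0 in the neonatal library, which is at least 27.4-fold higher when 3 counts stand for the 0. Igf1, a growth factor made by heart macrophages, was at 694 and 810 CPM (-0.22). Cd5l, a secreted scavenger protein, was at 60.8 and 118 CPM (-0.96) and had a count in 4.89% and 12.8% of cells with 5000 or more UMIs. Haem and iron genes were higher at 24 months for 7 of 8. The haem oxygenase Hmox1 was at 1037 and 358 CPM (1.54), and its ratio in other kept cells was the same to 2 decimals, at 1.54.

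Proliferation genes were higher at 24 months in marker-rich cells and not in other kept cells. All 25 were higher, with a median of 0.97, while in other kept cells 21 of 25 were lower, with a median of -0.65. Mki67, the proliferation antigen Ki-67, was at 92.4 CPM at 24 months and 24.8 CPM in neonatal marker-rich cells (1.90, 1.66 to 2.14), against 8.73 and 10.8 CPM in other kept cells. Top2a, the topoisomerase of dividing cells, was at 109 and 46.8 CPM (1.22). Pcna, the replication clamp, was at 165 and 162 CPM (0.02). In the whole class 22 of 25 were higher, with a median of 0.47. After thinning to 5000 UMIs, 19.4% of 511 marker-rich cells at 24 months had 3 or more UMIs of 18 mitotic genes (16.03 to 23.07%), and 14.0% of 172 neonatal cells did (9.15 to 20.05%). These intervals overlap, but they cover counting error only. Each age is 1 library, so their overlap is no test between the ages. Collagen-rich cells gave 3.87% and 6.199%. Of the cycle inhibitors, Cdkn1c (p57) was at 6.91 and 147 CPM, which is 21.3-fold lower at 24 months (interval 17.6 to 26.1). It was found in few cells: among those with 5000 or more UMIs it had a count in 4.11% at 24 months and in 23.3% in the neonatal library, and the 10% of cells with the most held 100% and 95.4% of its counts. Cdkn2a, the locus of p16 and Arf, was at 47.4 and 9.95 CPM (2.25) in marker-rich cells, at 59.0 and 46.8 CPM (0.33) in the whole class and at 38.7 and 66.3 CPM in other kept cells.

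To separate macrophage genes from transcripts shared with other cells, genes were kept whose level in marker-rich cells was at least 10 times that in collagen-rich cells in the age where they were higher. This step was chosen after the levels had been seen. Of 217 such genes with 50 CPM or more, 14 (6.45%) were 4-fold or more higher at 24 months and 7 (3.23%) 4-fold or more lower. A gene could pass through the age in which it was high, so the filter and the difference are not independent, and these shares are a description that cannot be set against those over all genes. The higher genes held both C-type lectin receptors of fungal and mycobacterial ligands. Clec4n (Dectin-2) was at 186 CPM at 24 months and 12.5 CPM in neonatal cells, a 14.9-fold difference (12.0 to 18.8), and Clec4e (Mincle), whose promoter is shown above, was at 68.8 and 8.02 CPM, 8.58-fold higher (6.53 to 11.5). They also held the chemokine receptor Ccr1, at 71.5 and 13.4 CPM. Srgn, the granule proteoglycan serglycin, was at 442 and 94.3 CPM, and Aoah, which detoxifies lipopolysaccharide, at 55.2 and 12.5 CPM. Tnfsf13, the B cell survival ligand APRIL, was at 116 and 21.4 CPM. Among the others were Ccl6, Cxcl2, Cfp, Hist1h1b, Nxpe5, and the paired receptors Pilra and Pilrb2, whose similar sequences make the split of their counts uncertain.

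The 7 lower genes were Cdkn1c, Ms4a4c, Ifi206, Ifi209, Oas3, Slfn1 and Cadm1. Oas3, an interferon-induced oligoadenylate synthetase, was at 11.5 CPM at 24 months and 117 CPM in neonatal cells (-3.34). Ms4a4c was at 3.73 and 65.2 CPM, 17.5-fold lower (13.4 to 23.2). Ifi206 and Ifi209, nucleic acid sensors of the PYHIN family, were at 6.55 and 76.8 CPM and at 13.5 and 93.9 CPM, and as close paralogues with Ifi204 their counts are uncertain. In other kept cells Ifi209 was at 0.396 and 0.145 CPM, so its levels there were close to the floor. The adhesion molecule Cadm1 was at 27.9 and 114 CPM (-2.03).

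**Figure D4:**
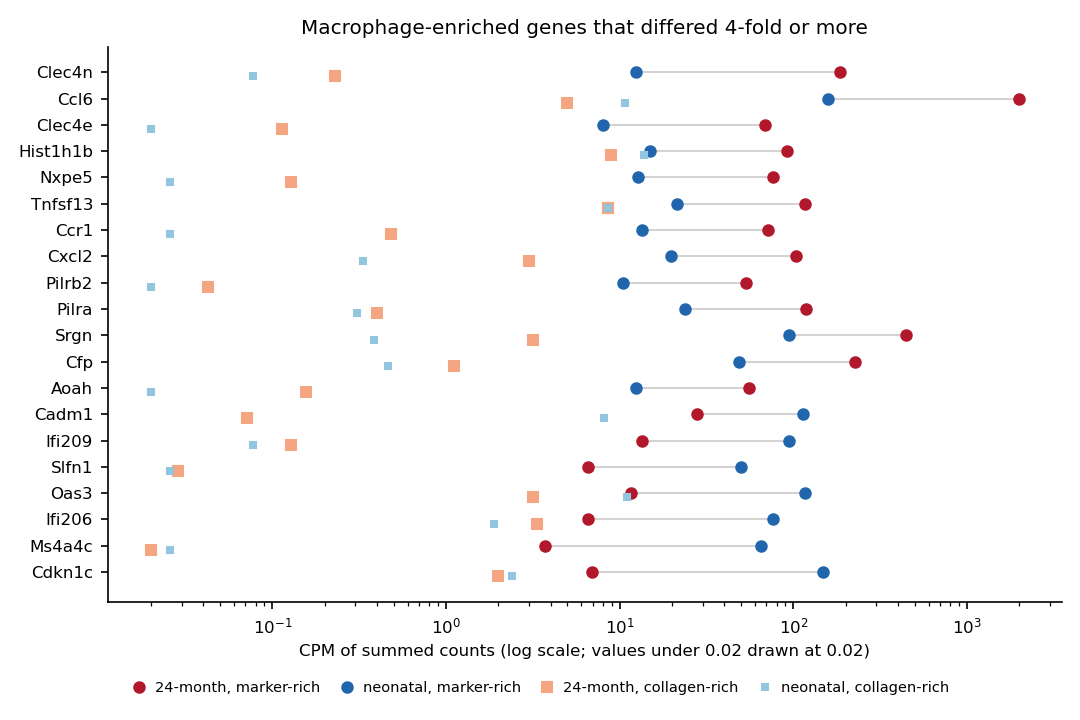
Levels of 20 macrophage-enriched genes that differed 4-fold or more (horizontal axis, CPM of summed counts, log scale) in marker-rich class cells (circles joined by a line) and collagen-rich cells with under 3 markers (squares) of the 24-month (red) and neonatal (blue) libraries, 1 library per age. The upper 13 genes are higher at 24 months, as Clec4n at 186 and 12.5 CPM, and the lower 7 are lower, as Cdkn1c at 6.91 and 147 CPM.

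Levels also varied between cells of 1 library. Among marker-rich cells with 5000 or more UMIs, C1qb was even, though as a rule marker it also chose the cells. Its quartiles were 2327 and 5172 CPM per cell at 24 months and 1557 and 4167 CPM in neonatal cells. Gpnmb was less even, with quartiles of 42.0 and 1514 CPM at 24 months and 918 and 6222 CPM in neonatal cells. The median cell had 297 CPM of Gpnmb at 24 months and 3629 CPM in the neonatal library. Ccl6 had a median of 690 CPM per cell at 24 months and 53.2 CPM in neonatal cells, and the 10% of cells with the most held 56.0% and 64.9% of its counts. Irf7 had a count in 35.0% of these cells at 24 months and in 94.8% of neonatal cells. After thinning to 1000 UMIs it had one in 3.16% of 24-month and 28.1% of neonatal marker-rich cells, below the 12.0% and 37.3% of collagen-rich cells. Ccl6 after thinning had a count in 49.1% and 11.4% of marker-rich cells, against 0.561% and 1.70% of collagen-rich cells.

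Some gene pairs were met in the same cell more often than independent detection would give, and others were not; no test was made. In cells thinned to 5000 UMIs, Mki67 and Top2a were both detected in 50 of 511 cells at 24 months, where 11.6 would hold both if the genes were independent. Ccl2 and Ccl7 were detected together in 338 cells at 24 months, against 296 if independent, and in 33 of 172 neonatal cells, against 16.7. The resident-type genes Folr2 and Mrc1 met in 55 cells at 24 months, against 57.6 if independent, and in 7 neonatal cells, against 8.55. Clec4n and Clec4e met in 66 cells at 24 months, against 60.6, and in 3 neonatal cells, against 0.384. Kdr, a receptor best known from endothelium, had a count in 9.39% of cells with 5000 or more UMIs at 24 months and in 55.2% of neonatal ones. Its level was 3.37 and 37.7 CPM in marker-rich cells and 0.800 and 2.96 CPM in other kept cells. Of the other endothelial markers, Cdh5 was at 0.421 and 0 CPM and Pecam1 at 0.300 and 0.594 CPM in marker-rich cells. All 10 listed, Kdr included, summed to 410 and 1001 CPM there, most of it from Fabp4. The source of these transcripts was not tested. Kdr and Cdkn1c, both lower at 24 months, met in 2 neonatal cells, against 2.47 if independent.

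The libraries also differed in sex-linked genes. Xist had a count in 0.135% of marker-rich cells at 24 months and in 37.9% in the neonatal library, and Y-linked genes in 60.4% and 40.3%. Sex and age cannot be told apart in these single cells. The bulk MGT libraries differed in the same direction, with Xist at 0 and 0.24999 CPM in the 18-month libraries, against 526 and 440 CPM in the neonatal ones. In CFs it was at 775 and 833 CPM at 24 months, against 1277 and 1288 CPM in neonates. Both kinds of transcript occurred in 8.53% of neonatal marker-rich cells and in 32.8% of neonatal marker-poor cells, where free RNA and merged cells were not tested.

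Replicated bulk libraries gave a test on other samples. In bulk RNA fewer macrophages and less RNA per macrophage cannot be told apart. With edgeR's quasi-likelihood test at a Benjamini-Hochberg adjusted p under 0.05, 2351 of 16368 genes (14.4%) were higher and 2652 (16.2%) lower in 18-month than in neonatal MGT cells. In CFs, 4593 of 16466 genes (27.9%) were higher and 4378 (26.6%) lower at 24 months than in neonates. The tables were scaled and tested separately and share no samples.

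Of the 7 rule markers, 5 rose and 2 fell in 18-month MGT cells, with a median log2 fold change of 0.97 beside -0.02 over all genes tested. Csf1r was at 45.9 and 54.1 CPM in the 18-month MGT libraries, against 18.9 and 21.1 CPM in the neonatal ones. The groups did not overlap, and the log2 fold change was 1.32 ± 0.11 (SE, n = 2 each, edgeR adjusted p = 8.56e-10). Cd68 was at 35.3 and 33.7 CPM, against 15.01 and 20.2 CPM (0.97, edgeR adjusted p = 9.57e-07). Both markers were higher in each 18-month library. C1qb, by contrast, was at 1.32 and 1.06 CPM, against 3.82 and 4.12 CPM, and fell by 1.73 (edgeR adjusted p = 7.77e-05). C1qa fell by 1.62 and C1qc, outside the rule, by 1.79, all from few counts. The call of C1qa was lost without 18-month replicate 2 (-1.19, edgeR adjusted p = 0.138) and without neonatal replicate 2 (-1.22, adjusted p = 0.108). That of Tyrobp, which rose by 0.98, was lost without 18-month replicate 1 (0.81, edgeR adjusted p = 0.0598) and without neonatal replicate 1 (0.61, adjusted p = 0.0998).

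In CFs all 7 rule markers fell, with a median of -1.22 beside -0.01 over all genes tested. Adgre1 was at 9.10 and 7.41 CPM in 24-month CFs, against 18.7 and 19.8 CPM in neonatal CFs. Its 24-month values lay below both neonatal ones, and it fell by 1.22 (SE 0.12, n = 2 each, edgeR adjusted p = 2.24e-10). Tyrobp was at 3.75 and 3.33 CPM, against 9.76 and 9.27 CPM, and fell by 1.43 (edgeR adjusted p = 1.45e-07). Csf1r changed least, at 12.2 and 14.0 CPM against 15.2 and 17.2 CPM (-0.30, edgeR adjusted p = 0.0329). Its call was lost with DESeq2 (adjusted p = 0.0983), without 24-month replicate 1 (-0.22, edgeR adjusted p = 0.207) and without neonatal replicate 2 (-0.24, adjusted p = 0.184). Of the 25 myeloid markers outside the rule, 3 rose and 15 fell in CFs, with a median of -0.63. In MGT cells 22 were tested, of which 12 rose and 2 fell, with a median of 0.99. Itgam rose in both comparisons, to 12.3 and 10.2 CPM in 18-month MGT cells, against 2.92 and 3.33 CPM in neonatal ones, and to 8.91 and 10.4 CPM in 24-month CFs, against 3.80 and 2.33 CPM in neonatal CFs (edgeR adjusted p = 3.34e-08 and 3.02e-09).

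Several macrophage-enriched genes that were higher in the 24-month single cells also rose in bulk. These genes were chosen on the single cells, and the bulk libraries took no part in that choice. Of 11 tested in MGT cells, 8 rose and none fell, with a median of 1.44. In CFs 12 were tested, of which 8 rose and 1, Cfp, fell, with a median of 0.97. Beside them, 14.4% of all genes and 12 of 22 myeloid markers outside the rule (median 0.99) rose in MGT cells. In CFs 27.9% of all genes and 3 of 25 of those markers (median -0.63) rose. More macrophages and a higher level per macrophage cannot be told apart in these bulk values. Ccl6 was at 66.6 and 49.1 CPM in 18-month MGT cells, against 7.81 and 10.7 CPM in neonatal MGT cells (2.65, SE 0.23, n = 2 each, edgeR adjusted p = 7.46e-06). It was at 123 and 126 CPM in 24-month CFs, against 6.66 and 6.08 CPM in neonatal CFs (4.28, edgeR adjusted p = 3.48e-29). The groups were far apart in both tables. Clec4n was at 16.1 and 15.5 CPM, against 3.65 and 4.24 CPM, in MGT cells (2.00, edgeR adjusted p = 1.13e-09), and at 8.58 and 8.08 CPM, against 4.60 and 3.81 CPM, in CFs (0.98, adjusted p = 7.77e-06). Ccr1 and Srgn rose in both comparisons as well. Clec4e rose by 2.06 in MGT cells (edgeR adjusted p = 0.00033), while in CFs its call (1.65, adjusted p = 0.0287) was lost with DESeq2 (adjusted p = 0.144), without 24-month replicate 1 (1.77, edgeR adjusted p = 0.0621), without 24-month replicate 2 (1.497, adjusted p = 0.135) and without neonatal replicate 2 (0.93, adjusted p = 0.314). Cfp in CFs (-0.35, edgeR adjusted p = 0.0244) was not called with DESeq2 (adjusted p = 0.102), without 24-month replicate 2 (-0.28, edgeR adjusted p = 0.149), or without neonatal replicate 1 (-0.37, adjusted p = 0.0662) or 2 (-0.37, adjusted p = 0.0605). Of the 7 genes lower at 24 months, 5 were tested in MGT cells and Cdkn1c, Oas3 and Cadm1 fell. In CFs 6 were tested: Cdkn1c and Cadm1 fell, and Ifi206, Ifi209, Oas3 and Slfn1 rose. The call of Ifi209 (1.09, edgeR adjusted p = 0.0222) was lost with DESeq2 and without 24-month replicate 2 or neonatal replicate 1 (adjusted p = 0.117, 0.0915 and 0.292 in that order).

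**Figure D5:**
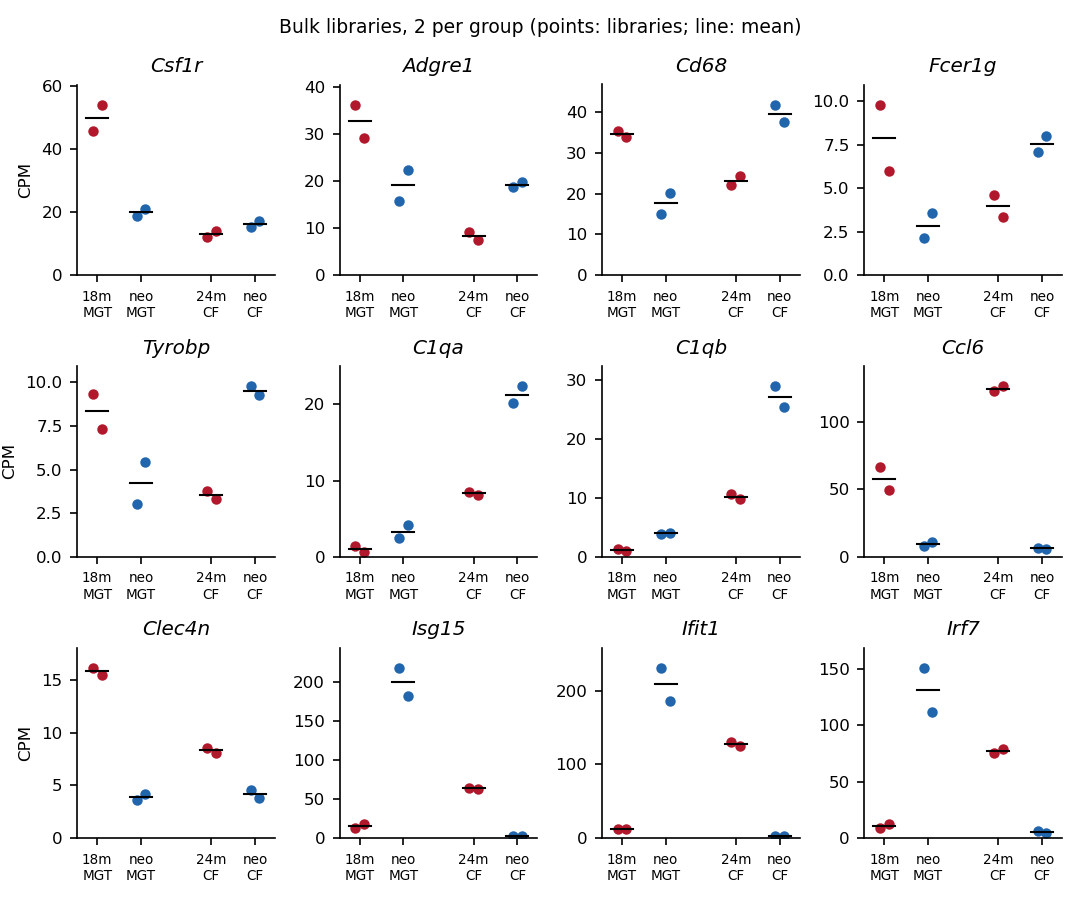
Levels in CPM (vertical axes, from 0) of 12 genes in bulk libraries, 2 per group, with points for libraries and a line for the mean: 18-month and neonatal MGT cells on the left of each panel, 24-month and neonatal CFs on the right. Csf1r is higher in 18-month MGT cells (45.9 and 54.1 CPM against 18.9 and 21.1 CPM), and Isg15 is lower in 18-month MGT cells but higher in 24-month CFs.

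The interferon-stimulated genes went opposite ways in the bulk tables. All 25 fell in 18-month MGT cells, with a median of -3.33, and all 25 rose in 24-month CFs, with a median of 3.51. The MGT call of Zbp1 (-1.39, edgeR adjusted p = 0.0371) was lost with the replicate block (adjusted p = 0.0520), with no filter on low counts (0.0962) and without replicate 1 of the 18-month (0.164) or of the neonatal group (0.164). The CF call of Mx1 (3.42, edgeR adjusted p = 0.0216) was lost without 24-month replicate 2 (adjusted p = 0.101) and without neonatal replicate 1 (0.177) or 2 (0.111). Isg15 was at 13.2 and 18.2 CPM in 18-month MGT cells, against 218 and 182 CPM in neonatal MGT cells (-3.67, edgeR adjusted p = 8.97e-08). In CFs it was at 64.6 and 63.5 CPM at 24 months, against 3.38 and 2.79 CPM in neonates (4.36, edgeR adjusted p = 1.11e-26). The single cells had the direction of the MGT table in marker-rich and in other kept cells. The 2 bulk tables differ in age, culture and Xist as well as in treatment, and the cause was not tested. The 12 class I genes behaved likewise, with all 12 lower in MGT cells (median -1.32) and all 12 higher in CFs (median 2.26). The MGT call of H2-T23 was lost without neonatal replicate 1 (-0.27, edgeR adjusted p = 0.109). Chemokines rose in 11 and fell in 4 of 20 tested in MGT cells, and rose in 19 of 21 in CFs, with none lower. The MGT call of Ccl12 (-2.59, edgeR adjusted p = 0.01995) was lost without either 18-month replicate (adjusted p = 0.116 in both) and without neonatal replicate 2 (-1.13, adjusted p = 0.512). Ccl2 fell by 0.33 in MGT cells (603 and 570 CPM against 743 and 733 CPM, edgeR adjusted p = 0.00265), although it was higher in both single-cell populations at 24 months. Hmox1 rose in both tables, to 555 and 625 CPM in 18-month MGT cells, against 177 and 186 CPM in neonatal ones (1.70, edgeR adjusted p = 1.79e-13). Of the 9 genes of colony-stimulating factors and their receptors, 7 rose and none fell in MGT cells, among them Csf1 itself (0.65, edgeR adjusted p = 2.51e-07). The call of Csf2 was lost without neonatal replicate 2 (2.21, edgeR adjusted p = 0.0776). In CFs 8 were tested, of which 3 rose and 4 fell, with a median of -0.22. The CF calls of Csf1r, Csf2rb2 and Csf3r were lost under 3, 2 and 5 of 7 alternatives. Proliferation genes, higher in the 24-month marker-rich cells, rose in 4 and fell in 2 of 25 in MGT cells, with a median of 0.01, and rose in 1 and fell in 18 in CFs.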

How the data were processed

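Counts per gene and barcode of 2 single-cell libraries, made with 10x Genomics chemistry per the labels, and raw read counts per gene of 20 bulk libraries were used as deposited by the authors. The submitters' processing notes name Trimmomatic 0.36, Subread 1.5.1 with featureCounts, SAMtools and, as genome build, mm10. The aligner, the annotation and the single-cell counting tool are not given in the sources used here. The labels' extraction protocol describes bulk RNA and was not taken to apply to the single cells. The 20 FPKM columns beside the bulk counts were not used.

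Single cells were analysed in Python 3.11.15 (numpy 2.4.6, scipy 1.17.1, pandas 2.3.3). Counts were summed over the cells of a class in a library and given as CPM. Class totals were 25.6 M counts at 24 months and 12.2 M in the neonatal library. Ratios have exact conditional binomial intervals at 95%, and 3 counts stand for 0. Doublets were not called and ambient RNA was not removed; their part in the results was not tested. Cells were thinned to 1000 or 5000 UMIs with a fixed seed, and collagen-rich cells (0.5% or more, under 3 markers) served as background.

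Bulk tables (14.5 to 18.8 M counts per library for MGT and LacZ, 17.3 to 22.3 M for CFs) were each fitted whole in R 4.3.3 with edgeR 4.0.16 (filterByExpr, TMM, robust quasi-likelihood). DESeq2 1.42.0, no filter on low counts, a replicate block and leaving out each replicate were alternatives. The scripts were tested on simulated data. Same-numbered libraries correlated at 0.05 (MGT) and -0.06 (CFs) in their deviations from group means, so the numbers were not taken as pairs.

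The members and the 36 gene lists were chosen with earlier results of these data known. Named genes are the rule markers, the 20 largest class ratios, the largest differences between ages, members of the lists and genes past 4-fold, of which the text uses a part; Folr2, Kdr, Cd5l, Cdh5, Pecam1 and low or absent markers were named after their values were seen. Some genes are not reported here.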

Additional observations from a re-analysis of the deposited data

Results flagged for a closer look

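Effects of age of opposite sign were seen in 9 results, and none of these differences was tested. This is because the bulk tables were scaled separately and differ in age (18 and 24 months), treatment and culture. They also differ in Xist, which was nearly absent from the 18-month MGT libraries but not from the 24-month CFs. Sex and age therefore cannot be told apart in the MGT table. Csf1r had a log2 fold change of 1.32 in bulk MGT cells, 18 months against neonatal, and of -0.30 in bulk CFs, 24 months against neonatal. For Adgre1 these were 0.78 and -1.22, for Cd68 0.97 and -0.78, for Fcer1g 1.47 and -0.92, and for Tyrobp 0.98 and -1.43. Of the 22 myeloid markers outside the rule tested in both tables, 8 were called higher in MGT cells and lower in CFs, among them Mrc1, Ptprc and Trem2. For these the groups also did not overlap in either table. Over all genes 14.4% were higher in MGT cells and 26.6% lower in CFs, and the share with both was not counted.

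The median over the interferon-stimulated genes was -3.33 in MGT cells and 3.51 in CFs, and over the class I presentation genes -1.32 and 2.26. In the single cells, with 1 library per age, Ifi209 had a log2 ratio of -2.80 in marker-rich cells and 1.45 in other kept cells, and Ifi206 of -3.55 and 1.11. Both genes were below 3 CPM in other kept cells of each age.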

How the results depend on the processing

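The class share depended on the rule. It was 12.8% at 24 months and 5.80% in the neonatal library with at least 4 markers, 20.5% and 10.9% with at least 2, 13.3% and 6.11% with collagen under 0.25%, 19.2% and 7.89% with collagen under 1%, and 12.9% and 5.51% for marker-rich cells. The 24-month share was the larger in each setting. Genes 4-fold or more higher and lower numbered 45 and 58, but 29 and 49 in marker-rich cells, 76 and 108 with a level minimum of 20 CPM, 24 and 40 at 100 CPM, and 407 and 1908 with none; other settings gave 32 to 57 and 49 to 76. No named gene that passed 4-fold reversed its direction, but the sizes of the log2 ratios were less steady. With marker-rich cells only, 151 single-gene ratios counted as moved and 49 as the same. After thinning to 1000 UMIs these were 157 and 43, and 17 list medians moved while 16 did not. In bulk, leaving out 1 replicate gave 1577 to 2031 higher and 1955 to 2095 lower genes in MGT cells, and 3909 to 4194 and 3861 to 4114 in CFs. The replicate block gave 2348 and 2636 genes in MGT cells and 4527 and 4291 in CFs, DESeq2 2068 and 2270, and 3805 and 3611, and no filter 2196 and 2604, and 4514 and 4421. The cause of these shifts was not tested. With 1 library per age, depth limits only counting error.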
